A study of Mus musculus with 8 samples.

Results

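Gzmk-high effector memory CD8+ T cells are here tumor-infiltrating cells that carry the message of granzyme K and none of Mki67, a gene of cycling cells. They also have little or no message of the granzymes C to G or of the interferon-response genes Ifit1 and Ifit3, and not both Pdcd1 and Tox. They were selected on measured values, from single-cell RNA-seq of CD45+ cells of B16-OVA melanomas. A cell entered if it passed the quality filter, had at least 1 unique molecular identifier (UMI, a count of a captured RNA molecule) of Cd8a or Cd8b1 and at least 1 of Cd3d, Cd3e or Cd3g, had none of Cd4, Lyz2, Cd79a or Ncr1, and had at least 2 UMIs of Gzmk. Cells with any Mki67, with 3 or more UMIs of Gzmc to Gzmg together or of Ifit1 and Ifit3 together, or with both Pdcd1 and Tox were left out. This gave 1266 cells of 4673 in the CD8 gate (27.1%), of 12828 cells passing the filter and of 15700 deposited barcodes. The gate held 2099 cells with 2 or more Gzmk UMIs, of which 833 met at least 1 of the exclusions. Joint Pdcd1 and Tox removed 581 (27.7%), Mki67 262 (12.5%), Ifit1 and Ifit3 143 and the granzymes C to G 14. At the edge of the rule, 261 of the 1266 cells (20.6%) had exactly 2 Gzmk UMIs, and a further 324 cells that met all other criteria had exactly 1.

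Granzyme K is a serine protease of cytotoxic granules, best known in CD8+ T cells that have met antigen and circulate through or enter tissues as effector memory cells. Such cells have typically lost the lymph node homing receptor CCR7 and instead carry receptors for inflammatory chemokines such as CXCR3. In tumors, Gzmk-expressing CD8+ T cells are often described beside the exhausted cells that keep TOX and PD-1. Gzmk lies at chr13:113171630-113180965 in GRCm38, next to Gzma at chr13:113093824-113100981, a second granzyme gene.

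The study transferred OT1 cells, CD8+ T cells with a receptor for an ovalbumin peptide, into C57BL/6 mice with subcutaneous B16-OVA tumors, implanted at 7 weeks of age, and gave no lymphodepleting treatment. OT1 cells were untransduced or secreted PD1d, a decoy made of the PD-1 ectodomain and a human IgG4 Fc, together with IL-2v, an IL-2 variant that binds the βγ receptor, or with the alarmin IL-33. PD1d/IL-2v/IL-33 adoptive cell transfer (ACT) was a mixture of both engineered products. Tumors were pooled, from 5 mice per condition for days 5 and 12 by the study's methods, and the number pooled for the day 26 library is not given in the sources used here. The 8 libraries were non-treated tumors (labelled day 5), untransduced ACT taken on days 5 and 12 after transfer, PD1d/IL-2v ACT and PD1d/IL-33 ACT, each taken on day 12, and the mixture, taken on days 5, 12 and 26. All were sorted as CD45+ cells with enrichment of CD8+ TILs, so that OT1 and host cells were mixed, and the rule does not separate them. Each condition and day was 1 library, so no difference between them could be checked in replicates or tested. All intervals are 95% intervals that cover the error of counting, not the spread between mice.

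The Gzmk-high cells were most frequent in PD1d/IL-33 tumors of day 12 and in the mixture-treated tumors of day 26. In PD1d/IL-33 tumors they were 128 of 355 (36.1%; 31.1–41.3%) of the CD8-gated cells, against 38 of 469 (8.10%; 5.80–11.0%) in PD1d/IL-2v tumors on the same day. In PD1d/IL-2v/IL-33 tumors they were 84 of 485 (17.3%; 14.1–21.0%) on day 5, 100 of 697 (14.3%; 11.8–17.2%) on day 12 and 880 of 2152 (40.9%; 38.8–43.0%) on day 26. The intervals, exact binomial ones, of PD1d/IL-33 tumors on day 12 and PD1d/IL-2v/IL-33 tumors on day 26 overlapped each other and lay above those of the other 6 libraries. Untransduced ACT gave 23 of 408 (5.64%; 3.61–8.34%) on day 5 and 4 of 37 (10.8%; 3.03–25.4%) on day 12, and non-treated tumors gave 9 of 70 (12.9%; 6.05–23.0%). The day 26 library alone held 69.5% of the Gzmk-high cells, so that values pooled over all of them would mostly be values of that library, and each library is therefore given on its own.

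The exclusions left different parts of the Gzmk-positive cells in different libraries. Before them, cells with at least 2 Gzmk UMIs were 61.7% of the gate in PD1d/IL-33 tumors, 65.6% on day 26 of PD1d/IL-2v/IL-33 treatment and 32.9% in non-treated tumors. Joint Pdcd1 and Tox removed 32 of the 63 such cells after untransduced ACT on day 5 (50.8%), and 13 of 23 in non-treated tumors (56.5%). In PD1d/IL-2v/IL-33 tumors it removed 17.5% on day 5, 11.2% on day 12 and 28.0% on day 26. Day 26 stood highest and PD1d/IL-33 tumors next both with and without the exclusions. The rule counts UMIs, so depth bears on it, and the median UMIs of CD8-gated cells ranged from 5128 in non-treated tumors to 7908 in PD1d/IL-2v tumors. With each cell thinned to 2000 UMIs before the rule, the shares were 29.3% in PD1d/IL-33 tumors, 5.61% in PD1d/IL-2v tumors and 9.20%, 6.10% and 34.2% on days 5, 12 and 26 of PD1d/IL-2v/IL-33 treatment. Without thinning, those of days 5 and 12 were 17.3% and 14.3%.

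**Figure D1:**
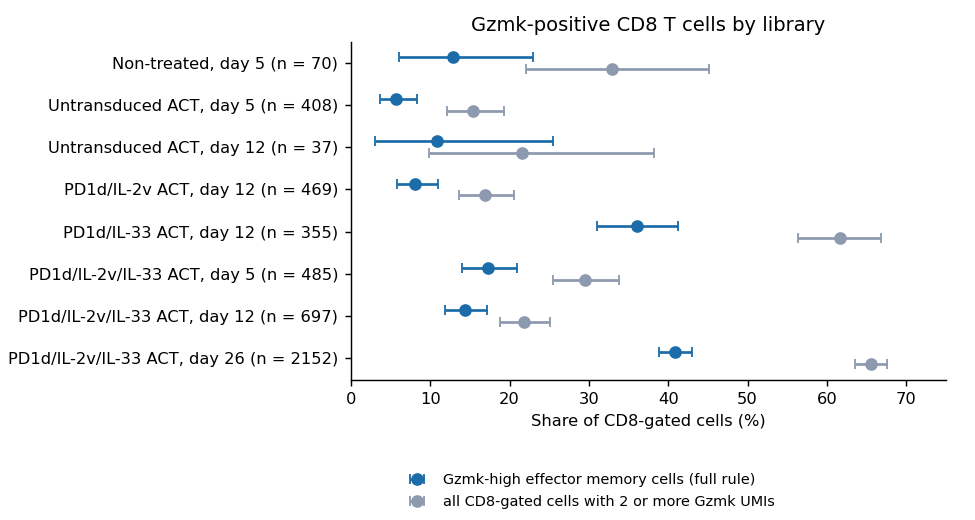
Share of CD8-gated cells (x axis, %) that were Gzmk-high effector memory cells by the full rule (blue) or had 2 or more Gzmk UMIs before the exclusions (grey), for each of the 8 libraries (y axis, n is the number of CD8-gated cells). Bars are 95% Clopper–Pearson intervals and cover counting error only. PD1d/IL-33 tumors on day 12 and PD1d/IL-2v/IL-33 tumors on day 26 stand to the right of the others in both measures.

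The cells carried the messages of CD8+ T cells, which the rule asked for, and few of other cell types. Levels are given as CPM, the UMIs of a gene over all UMIs of the Gzmk-high cells of a library, scaled to a total of 1000000. Cd3e, a chain of the T cell receptor complex, was between 697 and 1506 CPM in the 8 libraries and Cd8b1 between 887 and 1504 CPM. Cd4, Lyz2, Cd79a and Ncr1 were at 0 by the rule. Of 8 monocyte and macrophage markers, Cd68 was the most abundant wherever any was found, and the summed level of the list was between 0 and 61.9 CPM. Its defining genes C1qa, C1qb and Csf1r, which the rule did not use, gave at most 3 UMIs together in any library. The 5 melanoma markers gave 1 UMI in the 880 cells of day 26, 1 each in non-treated tumors and in untransduced ACT on day 5, and none elsewhere. On day 26, 7 dendritic cell markers gave 8, with Flt3 and Xcr1 at 0. The summed B cell list reached 16.0 CPM at most, with Cd79b as its most abundant gene, and the hemoglobin genes 16.0 CPM, both in untransduced ACT on day 5. Of the NK list, Ncr1 was at 0 and Eomes, which CD8+ T cells also express, made up most of the level in 7 of the 8 libraries, 143 of 147 CPM on day 26. In the 4 cells of untransduced ACT on day 12, Eomes was at 0 and the level was that of 2 Klrb1c UMIs. Foxp3 was at 0.887 CPM on day 26 of PD1d/IL-2v/IL-33 treatment. In the CD4 and regulatory list, Ikzf2 and Tnfrsf4 led, and its summed level was 344 CPM in untransduced ACT on day 5 and 42.4 CPM on day 26. Of the innate lymphoid and γδ T cell list, Gata3 led in 7 of the 8 libraries, Il17a was at 0 in all and the highest summed level was 106 CPM, in the 9 cells of non-treated tumors. Of the 15700 barcodes, 143 occurred in more than 1 library, and 18 of the Gzmk-high cells carried such a barcode, though no barcode was that of a Gzmk-high cell in more than 1 library.

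Of the 4 named markers that the rule did not use, 3 were well detected and 1 was found in few cells. Cxcr3, the receptor for interferon-induced chemokines, was found in 28.1% of the Gzmk-high cells in PD1d/IL-33 tumors and in 21.4%, 17% and 49.4% on days 5, 12 and 26 of PD1d/IL-2v/IL-33 treatment, with each cell thinned to 2000 UMIs, and in 0.272% of monocytes and macrophages, which lack it. Itga4, the α4 integrin chain that binds VCAM-1, was found in 51.6%, 45.2%, 40% and 45.5% of them in the same order, and in 30.2% of monocytes and macrophages, which also express it. St3gal6, a sialyltransferase that helps build selectin ligands, was found in 20.3%, 9.52%, 22% and 32.0%, against 1.09% of monocytes and macrophages. Lpar6, a receptor for lysophosphatidic acid, was found in only 7.81%, 1.19%, 3% and 8.98%, against 6.53% of monocytes and macrophages, whose median depth before thinning was 9320 UMIs against 4815 in the Gzmk-high cells of day 26. Lpar6 was therefore not read as a marker of these cells here. Whether monocytes and macrophages express Lpar6 was not tested. Ccr7 was found in at most 5.95% of the Gzmk-high cells of these 4 libraries, against 6.35% to 20.7% of cells that met the same criteria but had no Gzmk UMI. In these 4 libraries the data did not go against the name effector memory, with chemokine receptors and α4 integrin present and Ccr7 rare. For the other libraries the name is that of the rule alone. After untransduced ACT on day 5, 78.3% of the 23 cells had Pdcd1 without Tox, and Cxcr3 was at 72.0 CPM. Ctla4 and Lag3 were also highest in that library, values that go against the name there.

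Levels of the markers differed between libraries. Cxcr3 was at 322 CPM (306–339) on day 26 of PD1d/IL-2v/IL-33 treatment, at 102 CPM (79.0–129.9) on day 12 and at 120.2 CPM (92.9–153) on day 5. It was at 175 CPM (145–211) in PD1d/IL-33 tumors and 220.0 CPM (168–283) in PD1d/IL-2v tumors, and at 72.0 CPM (32.9–137) after untransduced ACT on day 5. Day 26 was the highest of the libraries with at least 20 Gzmk-high cells, and the 9 cells of non-treated tumors stood at 344 CPM (183–589). Itga4 was highest in PD1d/IL-33 tumors among those libraries, at 493 CPM (440.3–549), and lower in PD1d/IL-2v tumors, at 162 CPM (118–217). On days 5, 12 and 26 of PD1d/IL-2v/IL-33 treatment it was at 268, 272 and 310.3 CPM, with overlapping counting intervals. St3gal6 was at 101 CPM in PD1d/IL-33 tumors and at 65.5, 95.9 and 181 CPM (169–194) on days 5, 12 and 26, so that day 26 was the highest of these 4.

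Cells just inside and just outside the Gzmk threshold were set side by side. On day 26, Gzma was at 248 CPM in cells with no Gzmk UMI, 343 CPM with 1, 659 CPM with exactly 2, 603 CPM with 3 to 5 and 1086 CPM with 6 or more, and was thus not higher at each step. Ccr2, a receptor for CCL2, was at 71.2, 111, 163, 212 and 270.5 CPM in the same order, and Eomes, a T-box factor of effector and memory cells, at 46.5, 72.9, 78.6, 133 and 174 CPM. On day 26, Ccr2 and Eomes were thus higher at each step of the Gzmk count. The genes given here are a selection from the lists, and the bins of PD1d/IL-33 tumors are not given. In those tumors Ccr2 was nearly level between Gzmk-high and Gzmk-zero cells, as reported below. Il7r, the IL-7 receptor of resting and memory T cells, ran the other way, with 302, 228, 161, 137 and 70.1 CPM. Klf2, a factor that keeps T cells recirculating, also ran down, from 617 CPM without Gzmk to 393 CPM with exactly 2 UMIs and 245 CPM with 6 or more. Cxcr3 and Itga4 were nearly level above the threshold, with 306 and 330.3 CPM of Cxcr3 and 332 and 323 CPM of Itga4 at exactly 2 and at 6 or more UMIs. The median depth of the 151 cells with exactly 2 Gzmk UMIs was 4459 UMIs and that of the 371 cells with 6 or more was 5100, so the bins also differ in depth.

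Within each library, Gzmk-high cells were set against cells that met every other criterion and had no Gzmk UMI. The rule uses this contrast, so the values describe what travels with Gzmk and support nothing. It was made in the 4 libraries with at least 50 cells of both kinds, and a gene counted as called when the median of the 4 log2 ratios, taken after adding 10 CPM, was at least 1 in size. Of 2341 genes with at least 50 UMIs in each library, 7 were called higher (0.299%) and 7 lower (0.299%), and the median over all of them was 0.09. Beside Gzmk itself, the genes called higher were those of the granzyme Gzma (1.87), the chemokine Ccl5 (1.22), the chemokine receptor Ccr2 (1.53), the integrin chains Itgax (1.5) and Itga4 (1.03), and Wdr95 (1.84). The genes called lower were those of the chemokine Xcl1 (−2.97), the G-protein signaling regulators Rgs16 (−1.22) and Rgs2 (−1.02), ornithine decarboxylase Odc1 (−1.14), the chromatin organizer Satb1 (−1.07), Ifng (−1.04) and the integrin chain Itgav (−1.03). The call of Ccr2 did not hold in each library, with log2 ratios of 0.09 in PD1d/IL-33 tumors and 1.65, 1.5 and 1.57 on days 5, 12 and 26 of PD1d/IL-2v/IL-33 treatment. Thinning all cells to 2000 UMIs took Satb1, Ifng, Itgav and Rgs2 to −0.98, −0.94, −0.76 and −0.77.

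In each of the 4 libraries, Gzmk, Gzma and Ccl5 were at least 2-fold higher and Xcl1 at least 2-fold lower in the Gzmk-high cells. Gzma was 2207 in PD1d/IL-33 tumors and 4926, 3382 and 832 CPM on days 5, 12 and 26 of PD1d/IL-2v/IL-33 treatment, against 533, 1635, 408 and 248 CPM in Gzmk-zero cells of the same libraries. Ccl5 was 19513 in PD1d/IL-33 tumors and 15185, 15166 and 14987 CPM on days 5, 12 and 26, against 8969, 6842, 3715 and 6118 CPM in Gzmk-zero cells. The level of Ccl5 in the Gzmk-high cells thus stayed within a narrow band while that in the Gzmk-zero cells varied. Xcl1 was 4.57 in PD1d/IL-33 tumors and 158, 80.5 and 45.7 CPM on days 5, 12 and 26, against 388, 1676, 344 and 331 CPM. In the day 5 library 5 cells held all Xcl1 UMIs of the Gzmk-high cells, and 80.5% of them came from a single cell.

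Homing, adhesion and cytotoxic genes mostly stood above 0 in this contrast. Of the 14 homing and adhesion genes tested, 12 were above 0, with a median log2 ratio of 0.40 beside 0.09 over all genes tested. The 2 at least 2-fold higher, where 0.299% of all genes were, were Itga4 and Ccr2, the latter not in PD1d/IL-33 tumors. Cxcr3 had log2 ratios from 0.26 to 0.89 over the 4 libraries, St3gal6 from 0.32 to 1.25 and Itga4 from 0.84 to 1.80. Of 11 tested effector and cytotoxic genes, 9 were above 0, with a median of 0.42. Of 6 tested naive and central memory genes, 4 were below 0, with a median of −0.45. Il7r and Ccr7 had too few UMIs to be tested. Il7r was 18.3 in PD1d/IL-33 tumors and 21.8, 21.7 and 110.3 CPM on days 5, 12 and 26, against 62.5, 60.6, 61.0 and 302 CPM in Gzmk-zero cells. Ccr7 was 0 in PD1d/IL-33 tumors and 41.9, 20.1 and 20.9 CPM on days 5, 12 and 26, against 55.9, 292, 261 and 154 CPM. Both were lower in the Gzmk-high cells of all 4 libraries. The inhibitory receptors and exhaustion factors had a median of −0.19, with 5 of 7 below 0, and Gzmk-zero and Gzmk-high cells alike exclude joint Pdcd1 and Tox. The AP-1, NR4A and heat shock genes, many of which respond to tissue handling, were below 0 in 7 of 8 cases, with a median of −0.32. Their part in the contrast was not tested.

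**Figure D2:**
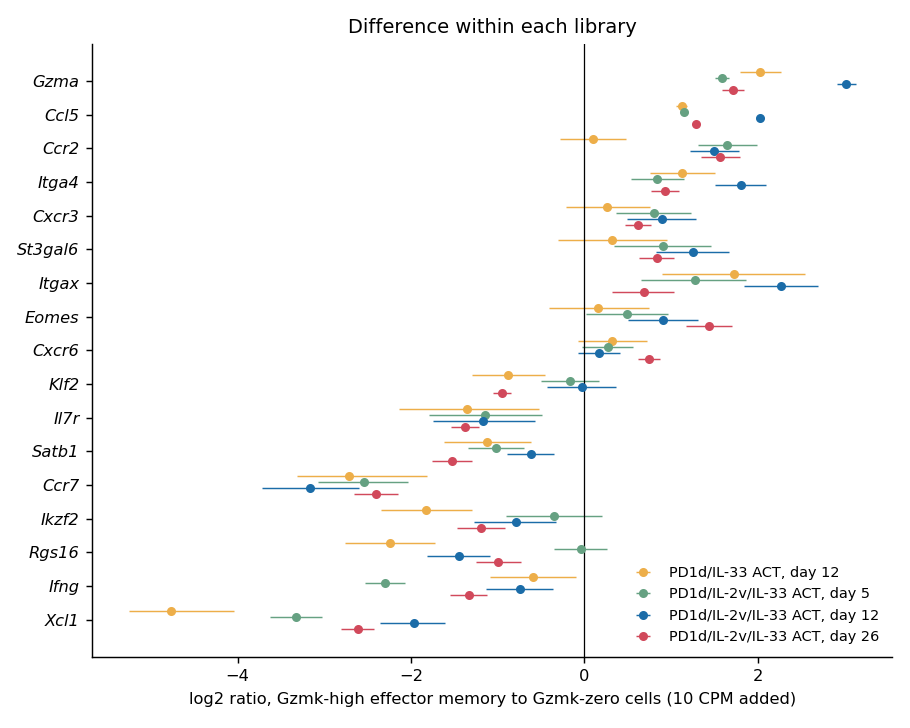
Log2 ratios (x axis, after adding 10 CPM) of the level in Gzmk-high effector memory cells to that in Gzmk-zero cells of the same library, for named genes (y axis) in the 4 libraries with at least 50 cells of both kinds. Points are libraries and lines are 95% intervals from counting error. Gzma and Ccl5 lie at or beyond 1, and Xcl1 and Ccr7 below −1, in all 4 libraries (Ccr7 had no UMI in the Gzmk-high cells in PD1d/IL-33 tumors), whereas Ccr2 is near 0 in PD1d/IL-33 tumors and beyond 1 in the other 3.

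Many Gzmk-high cells carried either Pdcd1, which encodes PD-1, or Tox, a factor of exhausted T cells, though never both by the rule. Since the rule used both genes, their shares and levels are given as a description. After untransduced ACT on day 5, 18 of the 23 cells (78.3%; 56.3–92.5%) had Pdcd1 without Tox. The share was 38.1% (27.7–49.3%) on day 5 of PD1d/IL-2v/IL-33 treatment, 21% (13.5–30.3%) on day 12 and 33.3% (30.2–36.5%) on day 26. In PD1d/IL-33 tumors it was 18.8% (12.4–26.6%), and Tox without Pdcd1 was found there in 27.3% (19.8–35.9%). That was the highest share of Tox without Pdcd1 among the 8 libraries, followed by day 26 with 20.3% (17.7–23.2%), and these 2 intervals overlapped. On day 12 of PD1d/IL-2v/IL-33 treatment, 72% (62.1–80.5%) of the cells had neither. Tox itself was at 113 CPM (88.6–142) in PD1d/IL-33 tumors, 59.2 CPM (52.3–66.8) on day 26 and 17.0 CPM (8.50–30.5) on day 12 of PD1d/IL-2v/IL-33 treatment. Pdcd1 was at 1648 CPM (1430.2–1889) in the 23 cells of untransduced ACT on day 5, above the 191 CPM (179–204) of day 26 and the 59.5 CPM (42.3–81.3) of PD1d/IL-33 tumors.

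**Figure D3:**
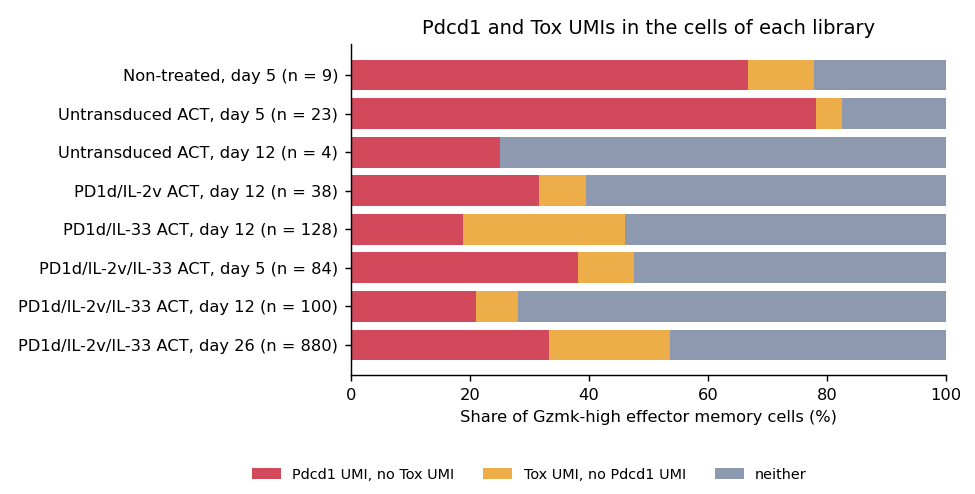
Share of the Gzmk-high effector memory cells of each library (x axis, %) with a Pdcd1 UMI but none of Tox (red), with a Tox UMI but none of Pdcd1 (yellow) or with neither (grey); n is the number of cells, as few as 4 in untransduced ACT on day 12. Cells with both are absent by the rule. The yellow part is widest in PD1d/IL-33 tumors, at 27.3%.

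The Gzmk-high cells with Tox were set beside those with neither gene, for genes chosen after their values were seen. On day 26, where the 3 subsets held 408, 293 and 179 cells (neither, Pdcd1 only and Tox only), Gzmb was at 421 CPM in cells with neither, 521 CPM with Pdcd1 only and 254 CPM with Tox only. In PD1d/IL-33 tumors, with 69, 24 and 35 cells, Gzma was at 2826, 1751 and 1403.5 CPM and Gzmb at 1249.9, 803 and 437 CPM. Gzmb was thus lowest in cells with Tox in both libraries, and Gzma on day 26 was at 873, 909.6 and 616 CPM. In PD1d/IL-33 tumors, Nr4a2, an orphan nuclear receptor induced by receptor signaling, was at 126 CPM in cells with neither gene, 341 CPM with Pdcd1 only and 400.3 CPM with Tox only, and on day 26 at 52.1, 74.6 and 69.0 CPM. Hspa1a, a heat shock gene, was at 126, 235 and 400.3 CPM in the same order in PD1d/IL-33 tumors and at 129.6, 60.6 and 117 CPM on day 26. The order of the subsets for Hspa1a was thus not the same in both libraries, and the part of heat shock or handling in these values was not tested.

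Cells with both Pdcd1 and Tox that met every other criterion, which the rule leaves out, were numerous enough for a comparison in 2 libraries, with 56 such cells in PD1d/IL-33 tumors and 303 on day 26. This comparison was added after the data had been seen. The Gzmk-high cells had more Gzma, 2207 against 571 CPM in PD1d/IL-33 tumors and 832 against 268 CPM on day 26, and more Ly6c2, a surface protein of memory and effector cells, 1726 against 804 CPM and 914 against 348 CPM. They also had more Cxcr3, 175 against 67.0 CPM and 322 against 164 CPM, and more Klf2, 140.3 against 64.5 CPM and 314 against 187 CPM. They had less of the inhibitory receptor Lag3, 36.6 against 127 CPM and 49.0 against 219.6 CPM, less Havcr2, which encodes TIM-3, 16.8 against 52.1 CPM and 7.10 against 64.6 CPM, and less Ikzf2, which encodes Helios, 57.9 against 218 CPM and 25.7 against 108 CPM. The genes named here were chosen after their values were seen, and the cells they are set against are defined by Pdcd1 and Tox, which the rule used.

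On day 12, the Gzmk-high cells of PD1d/IL-33 and PD1d/IL-2v tumors, whose libraries share a run identifier, differed in Gzma, lectin receptors and Itga4. Since PD1d/IL-2v tumors gave only 38 such cells, values are given for the listed genes alone. Gzma was found at 5957 CPM (5674–6252) in PD1d/IL-2v tumors and 2207 CPM (2094–2323) in PD1d/IL-33 tumors, a log2 ratio of −1.43 (−1.53 to −1.33), with 15.9% of the UMIs of the former from a single cell. Of the NK-type receptors, Klrk1, which encodes NKG2D, was at 501 against 151 CPM, Klrc1, which encodes NKG2A, at 984 against 371 CPM, and Klrd1, its CD94 partner, at 682 against 276 CPM. All were higher in PD1d/IL-2v tumors, and the log2 ratios, taken as IL-33 over IL-2v, were −1.67, −1.39 and −1.27. Markers of NK cells moved with them. The 5 genes of that list summed to 242 against 117 CPM, with Eomes the most abundant at 198 against 111 CPM and Klrb1c, which encodes NK1.1, at 39.7 against 6.10 CPM, while Ncr1 was at 0 by the rule and Klra4 at 0 in both libraries. Fcer1g and Tyrobp, adaptors that NK cells also carry, had log2 ratios of −1.79 and −1.26 in the same sense, and the part of NK cells in the difference was not tested. The chains of the IL-2 receptor were also higher there, Il2rb at 422 against 209 CPM and the common γ chain Il2rg at 689 against 326 CPM, as was Cish, a feedback inhibitor of cytokine signaling, at 148 against 51.8 CPM. Cish came to a log2 ratio of −1.35, and to −0.95 after thinning. Higher in PD1d/IL-33 tumors were Itga4, with 1.54 (1.12 to 2.0), and the heat shock genes Hspa1a and Hspa1b, with 2.75 and 2.74. Tox had 2.33 (1.34 to 3.20), from which nothing is read, since the rule used Tox together with Pdcd1. Ccr7, Xcl1 and Ccl1 were far higher in PD1d/IL-2v tumors, but 86.5%, 84.9% and 99.2% of their UMIs there came from a single cell of the 38. Without the highest cell of each library, their log2 ratios, again IL-33 over IL-2v, went from −4.79, −4.99 and −5.48 to −2.32, −2.71 and −0.48. The filter passed 766 of 1500 barcodes in the PD1d/IL-33 library and 1946 of 2200 in the PD1d/IL-2v library, and the median depth of the Gzmk-high cells was 4880 and 6532 UMIs, values whose part in the differences was not tested. Il33 itself was at 1 UMI in PD1d/IL-33 tumors and at 0 in the other 7 libraries. The study describes its transgenes as codon optimized, and reports adding the transgene to the reference only for its later experiment. Whether the Il33 counts include the transgene was not tested, so nothing about engineering is read from them. The receptor gene of IL-33, Il1rl1, was at 0 CPM in PD1d/IL-33 tumors and 3.09 CPM on day 12 of PD1d/IL-2v/IL-33 treatment.

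With both cytokines on day 12, the Gzmk-high cells were compared with those of PD1d/IL-33 tumors over 3134 genes. At least 2-fold differences were few, with 24 genes higher (0.766%) and 19 lower (0.606%) and a median log2 ratio of 0.02. The counts moved with the settings, to 93 and 87 of 7544 genes from 10 UMIs. After thinning to 2000 UMIs they were 10 and 23 of 1132, with 4 of the 24 and 8 of the 19 among them. Plac8, a small cysteine-rich protein of effector T cells, stood at 947 CPM (873–1025) in PD1d/IL-2v/IL-33 tumors and 204 CPM (171–242) in PD1d/IL-33 tumors, a log2 ratio of 2.16 (1.90 to 2.43). Its UMIs were spread over 84 of 100 cells. Lgals3, which encodes galectin-3, was at 645 against 242 CPM, with a log2 ratio of 1.38 (1.12 to 1.64), and Fcer1g, an ITAM adaptor of innate-like cytotoxic cells, at 111 against 10.7 CPM. Only 13 of the 100 cells held Fcer1g, and the log2 ratio moved from 2.55 to 2.11 without the cell highest for it in each library. Xcl1 was at 80.5 CPM, from 11 cells, against 4.57 CPM, which rests on 3 UMIs, a log2 ratio of 2.63 (1.86 to 3.18). AA467197, with 2.40, and Slc2a3, a glucose transporter gene at 91.3 against 22.9 CPM, were also higher. Xcl1, Fcer1g, AA467197 and Slc2a3 met the minimum of UMIs through PD1d/IL-2v/IL-33 tumors, where they were higher. Fcer1g, for instance, had 72 UMIs there and 7 in PD1d/IL-33 tumors. The calls of these genes therefore support nothing. Tox had −2.18 (−2.81 to −1.52), but the rule left out 32.0% of the gated cells with 2 or more Gzmk UMIs in PD1d/IL-33 tumors for joint Pdcd1 and Tox and 11.2% in PD1d/IL-2v/IL-33 tumors, so nothing is read from it. Malat1, a nuclear noncoding RNA, was at 2056 against 4717 CPM. Of the 12 effector and cytotoxic genes, none reached 2-fold and 9 were above 0, with a median of 0.43, and Gzma was at 3382 against 2207 CPM, a log2 ratio of 0.61 (0.52 to 0.71). Of 14 homing and adhesion genes tested, 9 were below 0, Itga4 at −0.83 and Cxcr3 at −0.73, with none at 2-fold.

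Values that bear on the RNA of these libraries moved with this comparison. The PD1d/IL-33 library had 766 of 1500 barcodes passing the filter, against 1643 of 2500 for PD1d/IL-2v/IL-33 tumors on day 12, and its Gzmk-high cells had a median of 4880 UMIs against 5766.5. The median mitochondrial share was 2.78% against 2.80%. Of the AP-1, NR4A and heat shock genes, 8 of 11 were above 0 in PD1d/IL-2v/IL-33 tumors, with Nr4a3 at 1.23 and Hspa1b at −1.02. The libraries carry different run identifiers, so that run and condition cannot be told apart.

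**Figure D4:**
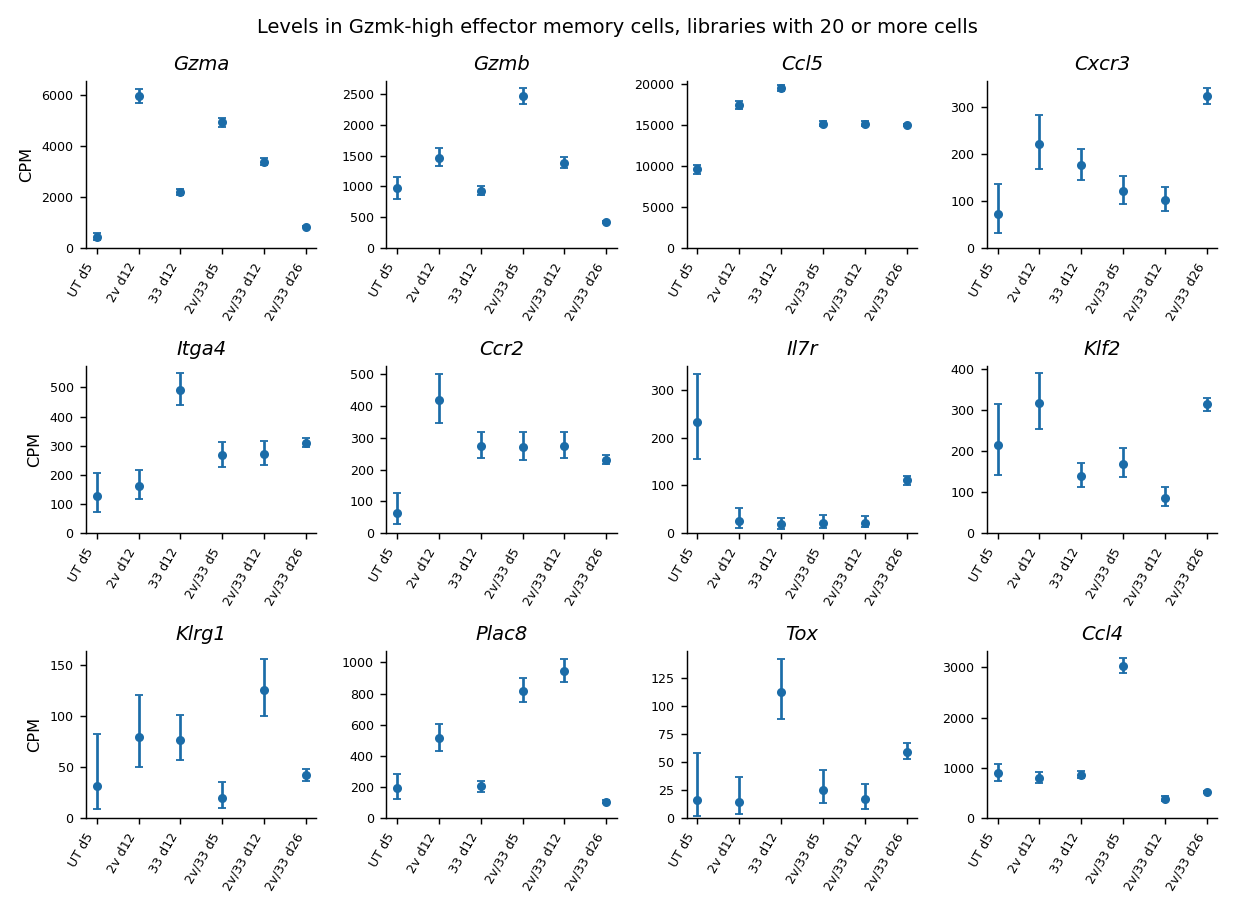
Levels (y axis, CPM from UMIs summed over cells) of 12 genes in the Gzmk-high effector memory cells of the 6 libraries with at least 20 such cells: untransduced ACT on day 5 (UT d5), PD1d/IL-2v (2v d12) and PD1d/IL-33 tumors (33 d12) on day 12, and PD1d/IL-2v/IL-33 tumors (2v/33) on days 5, 12 and 26. Bars are 95% Poisson intervals. Gzma runs from 5957 CPM in PD1d/IL-2v tumors to 439.9 CPM after untransduced ACT, and Plac8 peaks at 947 CPM on day 12 of PD1d/IL-2v/IL-33 treatment.

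From day 5 to day 12 of PD1d/IL-2v/IL-33 treatment, the Gzmk-high cells held less Ccl3 and Ccl4 and more Klrg1. Over 2915 genes, 20 were at least 2-fold higher on day 12 (0.686%) and 26 lower (0.892%), and the median log2 ratio was −0.04. Klrg1, a receptor of short-lived effector cells, was at 20 CPM (10.0–35.8) on day 5 and 125 CPM (99.5–156) on day 12, a log2 ratio of 2.17 (1.49 to 2.83), and was found in 44 of 100 cells against 8 of 84. Gzma, Gzmb and Prf1, the effector molecules of the granule, were at 4926, 2469 and 151 CPM on day 5 and 3382, 1388 and 83.6 CPM on day 12, each under 2-fold. Maf, a factor of cytokine-producing T cells, was at 100.1 CPM on day 5 and 9.28 CPM on day 12, with a log2 ratio of −2.51 (−3.14 to −1.77). Klrg1 had 81 UMIs on day 12 and 11 on day 5, and Maf had 6 and 55. Both met the minimum of UMIs through the library where they were higher, so their calls are a description and support nothing. The inhibitory receptor gene Ctla4 had a log2 ratio of −1.02, which came to −0.95 without the highest cell, and 7 of the 10 tested genes of its list were below 0. Pdcd1 was 1 of these, with −1.11, and with −0.81 when cells of 1 Gzmk UMI were included, but the rule used it together with Tox, which left out 17.5% of the gated cells with 2 or more Gzmk UMIs on day 5 and 11.2% on day 12, so nothing is read from it. Of the naive and central memory genes, 7 of 8 were below 0, with Slamf6 at −1.20.

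The Ccl3, Ccl4 and Ifng UMIs of day 5 were unevenly spread over cells. Ccl5, the chemokine that resting effector memory cells already hold, was at 15185 CPM on day 5 and 15166 CPM on day 12, a log2 ratio of −0.00 (−0.04 to 0.04). Ccl4 was at 3028 CPM (2884–3177) on day 5 and 384 CPM (337–435) on day 12, Ccl3 at 772 and 169 CPM and Ifng at 297 and 82.0 CPM. On day 5, 29 of 84 cells held Ccl4, 10 held Ccl3 and 18 held Ifng, and single cells gave 44.0%, 41.5% and 46.0% of the UMIs. Without the highest cell of each library the log2 ratios were −3.42, −3.36 and −1.23, against −2.95, −2.13 and −1.74 with all cells. The direction was the same in each case, but the intervals given count UMIs and do not cover this unevenness. Thinned to 2000 UMIs, the 2 libraries gave 6 genes higher and 13 lower of 933 tested, and Ifng came to −0.67. Fos, at 1.35, came to 0.45 without its highest cell. Of the barcodes, 2387 of 2500 passed the filter on day 5 and 1643 of 2500 on day 12, and the median mitochondrial share of the Gzmk-high cells was 3.46% and 2.80%. Of the AP-1, NR4A and heat shock genes, 10 of 11 were above 0 on day 12, with a median of 0.32. The part of these values in the difference was not tested. The 2 libraries carry different run identifiers.

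On day 26 the Gzmk-high cells held less Gzma and Gzmb and more Klf2 and Il7r than on day 12. With 880 cells against 100, 7083 genes were compared, of which 195 were at least 2-fold higher on day 26 (2.75%) and 155 lower (2.19%), and the median log2 ratio was 0.10. Gzma was at 3382 CPM (3242–3527) on day 12 and 832 CPM (806–859) on day 26, a log2 ratio of −2.01 (−2.09 to −1.93). Gzmb was at 1388 CPM (1299–1482) and 421 CPM (402–440.2), a ratio of −1.70 (−1.81 to −1.58). The granzyme inhibitors Serpinb9 and Serpinb6b were lower too, at −1.09 and −1.02, the latter −0.93 without its highest cell, and Ly6c2 at −1.26. Prf1 and Nkg7, a granule membrane protein, differed little, with −0.16 and 0.05, and Fasl, which encodes the death ligand, was higher, with 1.10 (0.76 to 1.44). Of the 12 effector and cytotoxic genes, 1 was thus at least 2-fold higher and 5 lower, Serpinb6b among them only with its highest cell, with a median of −0.31. Gzmk, which chose the cells, was at 599 CPM on day 12 and 1147 CPM on day 26, and the median Gzmk count of a cell was 3 and 5 UMIs.

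Of the 11 naive and central memory genes tested between days 12 and 26, 9 were above 0 and 5 at least 2-fold higher (2.75% of all genes compared), with a median of 0.34. Il7r was at 21.7 CPM (11.8–36.3) on day 12 and 110.3 CPM (101–120.4) on day 26, a log2 ratio of 1.93 (1.36 to 2.47), and was found in 4% and 16.0% of cells at equal depth. Klf2 was at 86.6 CPM (65.5–113) and 314 CPM (298–331), a ratio of 1.74 (1.39 to 2.11), and was found in 11% and 26.5%. Tcf7, which encodes the memory and precursor factor TCF1, had a ratio of 1.06 (0.64 to 1.5), Slamf6, a receptor of precursor cells, 1.23 (0.72 to 1.75), and Id3, a factor of memory cells, 1.03 (0.32 to 1.5). Id3 rested on 90 UMIs on day 26 and 3 on day 12, and Il7r, Tcf7, Slamf6 and Id3 met the minimum of 50 UMIs, summed over both libraries, through day 26, where they were higher, so the count of 5 is a description and supports nothing. Tcf7 and Id3 came to 0.91 and 0.97 when each cell weighed the same. The 2 below 0 were Satb1, −1.92 (−2.21 to −1.61), and Bcl2, −0.37 (−0.61 to −0.13), and Ccr7 was at 20.9 CPM on day 26. The same Gzmk-high cells were higher in Pdcd1, 1.31 (0.93 to 1.71), and Tox, 1.36 (0.76 to 1.92), and lower in Havcr2, −1.31 (−1.84 to −0.77), Ctla4, −1.0, and Nr4a2, −1.93 (−2.18 to −1.67). Without its highest cell Ctla4 came to −0.97, under 2-fold. Of that list, 2 were at least 2-fold higher and 3 lower of 11 tested, Ctla4 among the 3 only with its highest cell. Of all genes compared, 2.75% were higher and 2.19% lower. The 2 higher were Pdcd1 and Tox, whose joint presence the rule used to leave out 11.2% of the gated cells with 2 or more Gzmk UMIs on day 12 and 28.0% on day 26, so nothing is read from them. With cells of 1 Gzmk UMI included, Pdcd1 came to 0.82.

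Homing genes were also compared between days 12 and 26. Of 15 tested, 10 were above 0 with a median of 0.27, and 3 were at least 2-fold higher, beside 2.75% higher and 2.19% lower of all genes compared. The 3 were Cxcr3, 1.57 (1.24 to 1.91), Itgb1, the β1 integrin chain that pairs with the α4 chain, 1.33 (1.13 to 1.53), and Lpar6, 1.09 (0.46 to 1.67). The share of cells with Lpar6 was near that of monocytes and macrophages, whose expression of it was not tested. Lpar6 had 185 UMIs on day 26 and 9 on day 12. It met the minimum of UMIs through day 26, where it was higher, so its place among the 3 supports nothing. Cxcr4, the receptor for CXCL12, was lower, −1.48 (−1.73 to −1.23), from 257 to 85.4 CPM. Cxcr6 and Rgs1, 2 genes of tissue-resident cells, had ratios of 0.83 and 0.80, while Itgae, which encodes CD103, was at 4.64 and 4.21 CPM. Klrg1 was lower on day 26, −1.38 (−1.71 to −1.03), and at −0.98 after thinning, and of the terminal effector genes 6 of 8 were below 0. The cytokine receptor genes were mixed, with a median of 0.06, Il7r being the 1 at least 2-fold higher and Il18rap, an IL-18 receptor chain, the 1 lower, −1.10 (−1.46 to −0.74). Il7r, with 497 UMIs on day 26 and 14 on day 12, met the minimum of UMIs through day 26, so its call supports nothing here either.

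The largest single differences between days 12 and 26 were on the low side. Plac8 was at 947 CPM on day 12 and 105 CPM on day 26, a ratio of −3.06 (−3.22 to −2.89), and Fcer1g at 111 and 4.44 CPM, −3.07 (−3.43 to −2.68). AA467197 (−2.75), the histone demethylase gene Kdm6b (−2.73), Ifitm2 (−2.46), the metalloprotease gene Adam8 (−2.37), the orphan receptor gene Nr4a3 (−2.35) and Hexim1, an inhibitor of transcription elongation (−2.23), followed. Fcer1g, AA467197 and Hexim1 met the minimum of UMIs through day 12, and Ifitm2 and Adam8 mostly so. These genes were higher on day 12, so their calls support nothing. Ifitm2 came from 6 cells on day 12 and moved to −1.54 without its highest cell, whereas Plac8 was found in 84 of 100 cells. Highest on day 26 were creatine kinase B, Ckb (2.04), the tetraspanin gene Tspan3 (1.98), Penk, Il7r, the interferon-inducible GTPase gene Tgtp2 (1.92), Gm43291 (1.87), Trmt1 (1.79) and Klf2. All of these but Klf2 met the minimum of UMIs through day 26, where they were higher. Ckb, for instance, had 342 UMIs on day 26 and 7 on day 12. The places of these genes therefore support nothing. Penk, which encodes proenkephalin, was at 34.4 CPM, but its 155 UMIs lay in 9 of 880 cells, 52.3% of them in a single cell. The AP-1, NR4A and heat shock genes had a median of −0.66, with 8 of 11 below 0, and the median depth of the Gzmk-high cells was 5766.5 UMIs on day 12 and 4815 on day 26. The part of handling and depth in the difference was not tested, and the run identifiers of the 2 libraries differ, so that run and day cannot be told apart. Of the counts, that of genes higher on day 26 moved most. It came to 122 of 5078 genes tested with a mean of at least 20 CPM required and to 307 of 4405 after thinning to 2000 UMIs. With 1 CPM added in place of 10, it came to 616 of 7083.

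**Figure D5:**
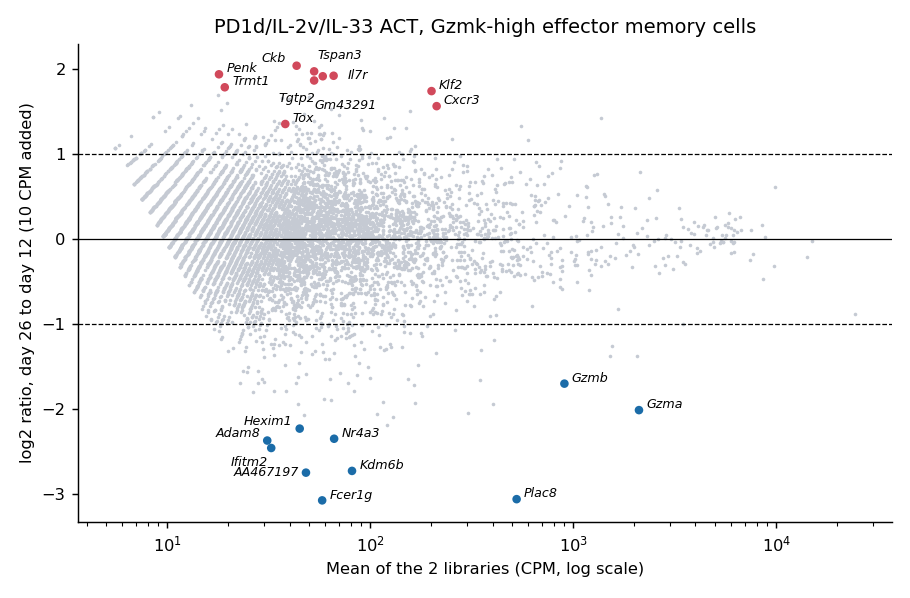
Log2 ratio of day 26 to day 12 of PD1d/IL-2v/IL-33 tumors (y axis, after adding 10 CPM) against the mean level of both libraries (x axis, CPM, log scale) for 7083 genes in Gzmk-high effector memory cells. Grey points are genes, red and blue points are labelled genes above and below 0, and dashed lines mark 2-fold. Gzma and Gzmb lie below −1, and Klf2 and Cxcr3 above 1.

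Within the day 26 library the Gzmk-high cells differed among themselves in Gzma. After thinning to 2000 UMIs, 189 of the 880 cells held a Gzma UMI, against 66 of 100 on day 12 and 59 of 84 on day 5. This split was made after the data had been seen, and the cells of a library are not replicates. Gzmb was found in 65.1% (57.8–71.9%) against 19.1% (16.2–22.2%) of the day 26 cells with and without Gzma, Klrg1 in 17.5% (12.3–23.6%) against 3.62% (2.35–5.29%), Cx3cr1, a receptor of circulating effector cells, in 14.8% (10.1–20.7%) against 3.18% (2.01–4.78%), and Klre1, a killer cell lectin receptor, in 21.2% (15.6–27.7%) against 5.35% (3.8–7.31%). Genes of recirculation went with Gzma as well, Klf2 in 45.5% (38.3–52.9%) against 21.3% (18.3–24.5%) and S1pr1, the receptor for sphingosine-1-phosphate that guides cells out of tissue, in 23.8% (17.9–30.5%) against 12.9% (10.5–15.6%). Cells without Gzma more often held Cxcr3, 53.4% against 34.9%, and Tcf7, 25.2% against 14.8%. For Itgb1, Cxcr6 and Eomes the shares were close, with Itgb1 in 75.1% (68.3–81.1%) against 72.6% (69.2–75.9%). The median depth before thinning was 4382 UMIs with Gzma and 4911 without, so that the cells with Gzma were not the deeper ones. On day 12 of the same treatment, Gzmb was found in 81.8% (70.4–90.2%) against 41.2% (24.6–59.3%) and Klrg1 in 28.8% (18.3–41.3%) against 5.88% (0.72–19.7%), in the same direction, while Klf2 was found in 13.6% (6.43–24.3%) against 5.88% (0.72–19.7%), with intervals that overlap widely. Cxcr3, in 18.2% (9.76–29.6%) against 14.7% (4.95–31.1%), and Tcf7, in 15.2% (7.51–26.1%) against 8.82% (1.86–23.7%), stood the other way on day 12 than on day 26, also with wide overlap. On day 5, Klf2 was found in 20.3% (11.0–32.8%) against 24% (9.36–45.1%) and S1pr1 in 16.9% (8.44–29.0%) against 28% (12.1–49.4%) of cells with and without Gzma, again the other way than on day 26 and with overlapping intervals. In PD1d/IL-33 tumors, 60 cells held Gzma after thinning and 68 did not. Gzmb, in 63.3% (49.9–75.4%) against 42.6% (30.7–55.2%), and Klrg1, in 21.7% (12.1–34.2%) against 7.35% (2.43–16.3%), ran as on day 26, with overlapping intervals. Klf2, in 11.7% (4.82–22.6%) against 16.2% (8.36–27.1%), ran the other way. Cxcr3, in 28.3% against 27.9%, and S1pr1, in 11.7% against 10.3%, differed little.

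The remaining libraries held few Gzmk-high cells, and their values are given for orientation. The 23 cells of untransduced ACT on day 5 had 125037 UMIs in all, so that 3 counts amount to 24 CPM. Their Gzma was at 439.9 CPM (331–573) and Gzmb at 968 CPM (803–1156), and Ccl5, at 9629 CPM (9093–10189), was the lowest of the 8 libraries. They had 696 CPM (557–858) of Ctla4 and 544 CPM (422–689) of Lag3, the highest levels of both inhibitory receptor genes in any library. In the 9 cells of non-treated tumors Gzmb stood at 2702 CPM (2203–3279.7) and Gzma at 1086 CPM (779–1473), and the 4 cells of untransduced ACT on day 12 gave 36 UMIs of Gzmk, 26 of them from a single cell, and 1 of Gzma. Il7r was at 232 CPM (155–333) in untransduced ACT on day 5, above all engineered libraries.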

How the data were processed

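The data were UMI counts per gene and cell, deposited by the authors as 1 aggregated 10x 5′ matrix of 8 libraries (27998 genes, 15700 barcodes, 98669511 UMIs, from 1387032 to 24917112 per library). The submitters' processing notes name Cell Ranger 2.2.0, bcl2fastq and GRCm38. The suffix of a barcode was taken to give its library in the row order of the deposited aggregation table. This is the convention of Cell Ranger and was assumed, since the labels do not state it, and every value per library rests on it. Barcodes were kept with 500 to 6000 genes, 2000 to 40000 UMIs, 5 to 60% ribosomal protein UMIs and under 10% mitochondrial UMIs, and the selection described in the report was applied. No doublet caller was run; an alternative left out the 6% of passing cells of each library with the most UMIs. No cells were clustered.

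UMIs of the selected cells were summed per library and given as CPM with exact 95% Poisson intervals, and shares with exact Clopper–Pearson intervals. Log2 ratios were taken after adding 10 CPM. Genes with at least 50 UMIs in the 2 libraries together were compared where both held at least 50 selected cells, and called at 2-fold. For shares of cells with a UMI, each cell was thinned to 2000 UMIs (seed 1). The calculation was tested on simulated data. With 1 library per condition there was no test. Named were the markers, the 187 genes of 22 lists and the 8 genes with the largest ratio on each side. The cells and the lists were chosen with earlier results of these data known. Gene positions are those of RefSeq for GRCm38.p6. Python 3.11.15, numpy 2.4.6, scipy 1.17.1, pandas 2.3.3 and matplotlib 3.10.9 were used, with edgeR 4.0.16 in R 4.3.3 for TMM factors. Alternatives covered the thresholds, the filter, thinning, the added CPM, the minimum of UMIs, the weight of each cell and TMM scaling.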

Additional observations from a re-analysis of the deposited data

Results flagged for a closer look

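Ccl3, which encodes a chemokine that draws myeloid and T cells, differed between Gzmk-high and Gzmk-zero cells in opposite directions in 2 libraries of day 12. The log2 ratio was 1.512 in PD1d/IL-2v/IL-33 tumors and −1.275 in PD1d/IL-33 tumors, and the difference between the libraries was not tested, as each condition was 1 library. After PD1d/IL-2v/IL-33 ACT the 109 Ccl3 UMIs of the Gzmk-high cells lay in 9 of 100 cells, and 86 of them in a single cell.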

How the results depend on the processing

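Directions held in all 1006 values computed under the alternatives, and 73 of these dropped under 2-fold. The values cover the 8 genes with the largest ratio on each side and, between libraries, the listed genes at least 2-fold apart. Listed genes with smaller ratios were not included, so the genes were chosen for large ratios, and a change of direction was unlikely from the start. With a minimum of 10 UMIs (114 values) or a mean of 20 CPM (88 values), a ratio does not change. With 1 CPM added (130 values), a ratio between 2 libraries keeps its sign. The values of these settings could thus not show a change of direction. The cause of the changes in shares and counts was not tested beyond what each setting does by construction. Shares of the CD8 gate without the exclusions were 32.9% in non-treated tumors, 15.4% after untransduced ACT on day 5, 16.8% in PD1d/IL-2v tumors, 61.7% in PD1d/IL-33 tumors and 29.5%, 21.8% and 65.6% on days 5, 12 and 26 of PD1d/IL-2v/IL-33 treatment. With the cell filter of the study's later experiment they were 8.91% after untransduced ACT on day 5 and 22.2%, 18.3% and 44.6% on days 5, 12 and 26. With 1 Gzmk UMI as the threshold they were 11.3% in PD1d/IL-2v tumors, 44.2% in PD1d/IL-33 tumors and 25.4%, 23.5% and 48.4% on days 5, 12 and 26, and with 3 UMIs 27.9% in PD1d/IL-33 tumors and 12.4%, 8.32% and 33.9%. With cells thinned to 2000 UMIs they were 5.61% in PD1d/IL-2v tumors, 29.3% in PD1d/IL-33 tumors and 9.20%, 6.10% and 34.2%. PD1d/IL-33 ACT and day 26 had the highest shares under each of these.

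Counts of genes at least 2-fold higher and lower also differed between settings. For PD1d/IL-2v/IL-33 against PD1d/IL-33 ACT they were 24 and 19, against 39 and 29 with 1 CPM added, both of 3134 genes tested. They were 93 and 87 of 7544 from 10 UMIs, 10 higher of 1132 after thinning and 45 higher of 4100 with 1 Gzmk UMI as the threshold. With a mean of at least 20 CPM in place of 50 UMIs they were 48 and 45 of 4920. For day 26 against day 12 they were 195 and 155, against 616 and 314 with 1 CPM added, both of 7083 genes tested. They were 307 higher of 4405 after thinning and 122 higher of 5078 from 20 CPM. For day 12 against day 5 they were 20 and 26, against 34 and 46 with 1 CPM added, both of 2915 genes tested. They were 81 and 105 of 7357 from 10 UMIs, 6 and 13 of 933 after thinning, and 43 and 59 of 5039 from 20 CPM. Thinning left fewer genes with the minimum of UMIs, so a call that was not shared may not have been tested. After thinning, 3 of the 20 and 4 of the 26 genes were shared with the calls of all UMIs. For day 26 against day 12, 92 of the 195 and 75 of the 155 were shared, and for PD1d/IL-2v/IL-33 against PD1d/IL-33 ACT, 4 of the 24 and 8 of the 19. For Gzmk-high against Gzmk-zero cells the counts were 7 and 7 of 2341 genes tested, against 2 lower of 884 after thinning. The requirement of 20 CPM and the removal of the highest cell of each library were added after the data had been seen. Under the latter, 13 of 114 named values were under 2-fold.

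No paired analysis was possible because each condition and day was 1 library, and leaving out a replicate was not possible for the same reason. Gene-wide counts were not run for PD1d/IL-33 against PD1d/IL-2v ACT, which had 38 Gzmk-high cells in the smaller library, nor were the normalization by TMM factors and the requirement of 20 CPM. Depth limited the smaller libraries most: 3 counts came to 0.665 CPM on day 26 and to 118.9 CPM in the 4 cells of untransduced ACT on day 12.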

Other observations

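Transcription factors of effector memory cells were measured in each library of the Gzmk-high cells. Of the 7 tested between days 12 and 26 of PD1d/IL-2v/IL-33 treatment, none was 2-fold apart, where 2.75% of all genes were higher and 2.19% lower, and the median log2 ratio was 0.04. Eomes was at 89.2, 99 and 143 CPM on days 5, 12 and 26, and at 111 CPM in PD1d/IL-33 tumors. Tbx21, which encodes T-bet, was at 49.2, 74.3 and 93.8 CPM and at 65.6 CPM in the same order. Between days 5 and 12, Irf8 was the 1 factor of the 6 tested to pass 2-fold, with −1.16 (−1.68 to −0.63) and with −0.96 without its highest cell in each library, where 0.686% of all genes were higher and 0.892% lower. It had 73 UMIs on day 5 and 35 on day 12, and met the minimum through day 5, where it was higher, so its call supports nothing. For PD1d/IL-33 against PD1d/IL-2v tumors on day 12, Irf8 had a log2 ratio of −2.38 (−2.99 to −1.77).

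Of the interferon-stimulated genes, 7 were tested between days 12 and 26, with a median of −0.02. Between days 5 and 12, 1 was at least 2-fold lower and 1 higher, where 0.892% of all genes were lower and 0.686% higher. Ifi27l2a had a ratio of −1.36 (−1.56 to −1.17) and Ifitm2 of 1.35 (0.60 to 2.06), the latter from 4 cells on day 5 and 6 on day 12. Ifitm2 had 10 UMIs on day 5 and 40 on day 12. It met the minimum of UMIs mostly through day 12, where it was higher, so its call supports nothing. The median over the 6 tested then was 0.15, and over the 5 tested against PD1d/IL-33 tumors on day 12 it was 0.02.

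The rule removes cells with Mki67, and other cycle genes were low but present. Stmn1, a microtubule regulator of dividing cells, was at 77.4 CPM on day 12 and 19.1 CPM on day 26, a ratio of −1.59 (−2.0 to −1.16), and Pcna, a replication factor, had −1.16 (−1.52 to −0.80). Of 6 cycle genes tested, 5 were below 0. The NK-type lectin receptors had a median of −0.35 between days 12 and 26, where 4 of 5 tested were below 0, of 0.19 between days 5 and 12, and of 0.37 between PD1d/IL-2v/IL-33 and PD1d/IL-33 tumors on day 12. The cytokine and chemokine list had 4 genes tested between days 5 and 12, all below 0, with a median of −1.93, and 5 between days 12 and 26, with a median of −0.48. The tissue residence list had medians of −0.02, 0.36 and 0.10 for day 12 against 5, day 26 against 12 and PD1d/IL-2v/IL-33 against PD1d/IL-33 ACT.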
